A study of Homo sapiens with 6 samples.

Results

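Natural antisense transcripts are RNAs read from the strand opposite to another gene, the host, and most are long noncoding RNAs named after that host. Some overlap the host's exons, and others start beside the host's promoter and run away from it, so that both genes share a stretch of regulatory DNA. Many such RNAs are kept at low levels in the nucleus and are degraded by the nuclear exosome and its cofactors, and their levels can follow the host's or move without it. They were followed here in CAL27, an established cell line from a human squamous cell carcinoma of the tongue. A row of the deposited count table was taken when its symbol ended in -AS and 1 digit and its raw counts summed to at least 600 over the 6 libraries, with GAS6-AS1, GAS6-AS2 and EPB41L4A-AS1 left out. This gave 175 of 1236 antisense rows and of 60564 rows in all. The transcripts were thus chosen by their total count, so their abundance is a description. The rule itself does not use the difference between the groups. Its sum covers both groups, so a row can pass through the group where its counts are higher. The rows closest to the threshold were TAPT1-AS1 (610 counts) and PRKCQ-AS1 (613) inside it, and PPP1R12A-AS1 (599) and STARD4-AS1 (594) outside it.

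The study set 2 stable CAL27 lines side by side, each with 3 libraries. Cells of the control group, genotype WT in the labels, carried a control lentiviral vector, and the sample descriptions name EGFP. Cells of the other group, genotype CNTNAP2-203 OE (overexpression), were infected with a lentiviral construct of CNTNAP2-203, one transcript of CNTNAP2. Puromycin selection (5 μg/ml, 2 weeks) was the same in both. The question in the design text is how CNTNAP2-203 acts on proliferation. Nothing in the labels ties the 3 libraries of a group to separate cultures or infections. The p-values therefore cover only the library-to-library spread, which may be technical. In bulk RNA, fewer cells of a type and less RNA per cell cannot be told apart.

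Total counts per library ranged from 36843190 to 42412703. CNTNAP2 had 0, 3 and 4 counts in the controls and 140022, 156055 and 119280 in CNTNAP2-203 OE. All 8 squamous markers were above 1 FPKM (fragments per kilobase of gene length, scaled to library size) in the mean of each group, led by KRT14, and their sum was 3463 to 3955 FPKM in control and 3578 to 4264 in CNTNAP2-203 OE. The sums of 4 leukocyte, 3 endothelial and 5 fibroblast markers stayed at or below 30.2, 1.47 and 6.01 FPKM in every library, with PTPRC, PECAM1 and DCN near 0. Most of the leukocyte sum came from CD14 (mean 14.1 FPKM in control and 12.1 in CNTNAP2-203 OE) and CD68 (11.9 and 12.6). LUM (3.01 and 3.39) and COL1A1 (2.49 and 2.10) led the fibroblast sum, and CDH5 (0.818 and 1.05) the endothelial sum. CNTNAP2-203 OE replicate 3 stood apart, with the fewest genes detected (25336 against up to 27002) and a distance of 0.72 to 0.84 log2 units from every other library, against 0.56 to 0.66 among the remaining 5. The count of called antisense transcripts and some of the values below are given with and without it. The library kit keeps no strand information, so reads from an antisense transcript and from its host cannot be told apart where their exons overlap. The exonic overlaps given below do not cover reads from unspliced host RNA.

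The name ending held for a mixed set of transcripts. GENCODE 29 lists 114 of the 175 as antisense RNA, 31 as long intergenic RNA, 24 as processed transcripts, 2 as transcripts of a bidirectional promoter, 1 as protein coding (NCBP2-AS2) and the remaining 3 as transcribed pseudogenes. Of the 175, 116 overlapped exonic bases of the host on the other strand, 18 overlapped the host's body without shared exonic bases, and 32 lay head-to-head with it, with starts within 1000 bases and no overlap. ZNF503-AS1, ZMIZ1-AS1, FOXD2-AS1, IGFL2-AS1 and DNAJC9-AS1 lay in none of these positions. For HOXA-AS2, HOXD-AS2, RPARP-AS1 and JHDM1D-AS1 no row carried the host's symbol. JHDM1D is an older name of KDM7A in RefSeq, and KDM7A is used as its host below. The 171 pairs with a host row covered 170 host genes, since PAXIP1 has both PAXIP1-AS1 and PAXIP1-AS2.

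Antisense transcripts were mostly less abundant than their hosts. Compared per length, the host's mean FPKM was higher in 130 of 171 pairs and the antisense transcript's in 41. The median level was 1.08 FPKM for the antisense transcripts of these pairs and 5.01 FPKM for the hosts. LRRC75A-AS1, which hosts small nucleolar RNAs in its introns, was the most abundant at 37.5 FPKM, while LRRC75A itself had 0.049 FPKM. NCBP2-AS2 followed at 16.4 FPKM, close to 15.6 FPKM for NCBP2, the small subunit of the nuclear cap-binding complex. SLC9A3-AS1 had 9.39 FPKM against 0.614 FPKM for SLC9A3, a sodium-proton exchanger of epithelial membranes. IGFL2-AS1 had 8.05 FPKM although IGFL2, an insulin growth factor-like gene, was listed at 0 in all 6 libraries. VPS9D1-AS1 had 7.60 FPKM and VPS9D1 5.22 FPKM. None of the 5 most abundant antisense transcripts passed the edgeR test between groups described next, and DESeq2 called SLC9A3-AS1 among them.

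Of the 175 antisense transcripts, 159 (90.9%) lay within 1.5-fold of control in CNTNAP2-203 OE, as did 91.9% of genes with a summed count of at least 600 and 85.6% of all genes tested. All 175 passed the filter on low counts, and 1 of them, SLC25A25-AS1, passed the threshold of 0.05 (edgeR quasi-likelihood test, Benjamini-Hochberg adjusted over 18786 genes), which is 0.571% against 1.39% of all genes tested (0.798% higher and 0.596% lower) and 1.91% of genes with a summed count of at least 600. It was lower in CNTNAP2-203 OE. The genes with at least 600 counts had a smaller median standard error of the log2 fold change (0.15) than the antisense transcripts (0.19). DESeq2 called 13 of the 175 (7.43% against 7.62% of all genes to which it gave an adjusted p), 2 higher and 11 lower. Its 1125 calls over all genes were 650 higher and 475 lower, so the calls among the antisense transcripts leaned to lower values where those of all genes did not. Without the filter on low counts edgeR called 2 (1.14% against 1.05% of all genes), and without CNTNAP2-203 OE replicate 3 it called 5 (2.86% against 2.80%). The shares of all genes in these 2 fits and in DESeq2 include genes with fewer than 600 counts. A share among genes with at least 600 counts was not taken for them. At an unadjusted p under 0.05 there were 28 (9 higher and 19 lower), or 16% against 17.2% of all genes (9.41% higher and 7.84% lower) and 21.1% of genes with at least 600 counts. The log2 fold changes of the 175 had a median of -0.07 (quartiles -0.29 and 0.14), against -0.0038 over all genes, and 76 were positive and 99 negative. Beyond 1.5-fold of control, 5 of the 175 were higher and 11 lower. Of all 18786 genes tested, 1273 were higher and 1431 lower by this measure. Of the 12983 genes with at least 600 counts, 540 were higher and 510 lower. The 5 antisense transcripts more than 1.5-fold higher were FLVCR1-AS1, OIP5-AS1, TMPO-AS1, RNF139-AS1 and PXN-AS1, none of which passed the edgeR test. DESeq2 called TMPO-AS1 and FLVCR1-AS1 among them. For 42 transcripts (24%, with 14 higher and 28 lower) the CPM (counts scaled by TMM to a common library size) of the groups did not overlap, against 26.5% of all genes (13.7% higher and 12.8% lower) and 30.8% of genes with at least 600 counts.

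**Figure D1:**
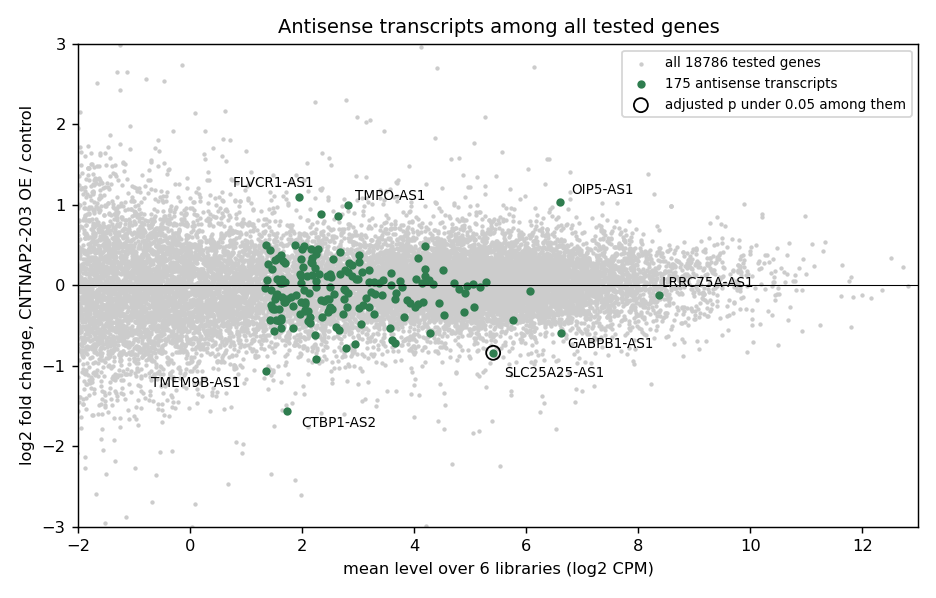
Log2 fold change between CNTNAP2-203 OE and control (vertical axis, shown from -3 to 3) against the mean level over the 6 libraries (horizontal axis, log2 CPM), for the 175 antisense transcripts in green and all 18786 tested genes in grey, of which those outside the axis limits are not drawn. The green points spread over the same band as the grey ones, and SLC25A25-AS1, circled, is the 1 that passed the threshold.

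SLC25A25-AS1 fell, and the values of its host overlapped between the groups. The transcript lies on the minus strand at chr9:128108581-128118693 (GRCh38), and 665 of its exonic bases, 10.4%, overlap exons of SLC25A25, a calcium-regulated carrier of ATP and phosphate in the inner mitochondrial membrane. It had 60.7, 51.4 and 51.1 CPM in the 3 controls and 30.2, 33.7 and 27.4 in CNTNAP2-203 OE. Every CNTNAP2-203 OE library was below every control. The log2 fold change was -0.84 with a standard error of 0.122 (n = 3 and 3, edgeR adjusted p = 0.0269). SLC25A25 had 35.6, 39.9 and 29.8 CPM in the controls and 33.9, 34.7 and 36.2 in CNTNAP2-203 OE, and these ranges overlap. The log2 fold change of SLC25A25 was -0.0077 (standard error 0.127), and that of PTGES2, a neighbour within 5000 bases on the same strand as the antisense transcript, was 0.07. Leaving out each library in turn gave edgeR adjusted p of 0.0232 to 0.127. Replicate 3 of CNTNAP2-203 OE was the only library whose removal kept the value under 0.05.

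The RefSeq promoter window of SLC25A25-AS1 (250 bases before to 50 after the start, GRCh38.p14, chr9:128118685-128118984, minus strand) is shown because this is the transcript that passed the test. It holds 3 CG dinucleotides against a median of 27 in the 177 windows of the antisense transcripts, and none of the letters searched, which are given with the paired promoters below.
SLC25A25-AS1: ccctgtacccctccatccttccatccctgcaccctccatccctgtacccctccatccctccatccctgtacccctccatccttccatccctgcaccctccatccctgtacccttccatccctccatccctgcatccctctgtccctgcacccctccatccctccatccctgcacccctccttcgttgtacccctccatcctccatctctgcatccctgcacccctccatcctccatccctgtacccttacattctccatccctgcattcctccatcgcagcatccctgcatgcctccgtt

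The transcripts next in order of p did not pass the threshold of the edgeR test. TMPO-AS1 had 5.57, 4.66 and 3.86 CPM in control and 9.0, 8.28 and 11.0 in CNTNAP2-203 OE, with every CNTNAP2-203 OE library above every control (log2 fold change 1.00, edgeR adjusted p = 0.0529). TMPO, which encodes the lamina-associated polypeptides of the inner nuclear membrane, had 95.2, 81.7 and 70.5 CPM in control and 137, 149 and 78.9 in CNTNAP2-203 OE. Replicate 3 of CNTNAP2-203 OE lay inside the control range for the host and not for the antisense transcript. TMPO had a log2 fold change of 0.56 (edgeR adjusted p = 0.296), which became 0.79 with an adjusted p of 0.033 without that library. The pair overlaps by 713 exonic bases, 21.2% of the exonic length of TMPO-AS1.

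JHDM1D-AS1 and KDM7A were both lower in every CNTNAP2-203 OE library. JHDM1D-AS1 had 9.63, 8.08 and 8.12 CPM in control and 5.29, 4.24 and 5.57 in CNTNAP2-203 OE (log2 fold change -0.77, edgeR adjusted p = 0.0756). KDM7A, a histone lysine demethylase, had 15.1, 17.9 and 16.4 CPM in control and 10.3, 9.01 and 6.52 in CNTNAP2-203 OE (log2 fold change -0.93, standard error 0.185, edgeR adjusted p = 0.0581). The groups did not overlap for either gene. The antisense to host ratio within a library differed by 0.18 on the log2 scale (exact two-sided permutation test, p = 0.6). The starts of the 2 genes are 149 bases apart in GENCODE 29 and they share no exonic bases.

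FLVCR1-AS1 was higher in every CNTNAP2-203 OE library, and its head-to-head host was not. It had 2.95, 2.43 and 1.96 CPM in control and 4.6, 4.5 and 6.66 in CNTNAP2-203 OE (log2 fold change 1.10, edgeR adjusted p = 0.0764). FLVCR1, a membrane transporter linked to haem export and choline uptake, had 11.1, 13.9 and 13.7 CPM in control and 16.2, 14.9 and 13 in CNTNAP2-203 OE (log2 fold change 0.19). The antisense transcript was separated between the groups and the host was not. The log2 ratio within a library was higher in every CNTNAP2-203 OE library, by 0.90 on average (exact two-sided permutation test, p = 0.1, the smallest that 3 against 3 libraries allow). The starts are 167 bases apart in GENCODE 29.

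The promoters of these 3 pairs are shown because JHDM1D-AS1 and KDM7A, and FLVCR1-AS1 and FLVCR1, are read outward from 1 shared stretch, while TMPO-AS1 and TMPO are read toward each other. The RefSeq windows (GRCh38.p14, 250 bases before to 50 after the start) of the KDM7A pair share 223 bases, those of the FLVCR1 pair 236 and those of the TMPO pair 0. The letters were searched on both strands and stand in capitals. They were the E2F letters TTTCCCGC, TTTCGCGC, TTTGCCGC and TTTGGCGC, the CCAAT box CCAAT, and the GC box GGGCGG. RefSeq lists JHDM1D-AS1 as KDM7A-DT and FLVCR1-AS1 as FLVCR1-DT. The windows lie at chr7:140177011-140177310 (plus strand) for JHDM1D-AS1, chr7:140176934-140177233 (minus) for KDM7A, chr1:212858089-212858388 (minus) for FLVCR1-AS1, chr1:212858025-212858324 (plus) for FLVCR1, chr12:98516177-98516476 (minus) for TMPO-AS1 and chr12:98515323-98515622 (plus) for TMPO.
JHDM1D-AS1: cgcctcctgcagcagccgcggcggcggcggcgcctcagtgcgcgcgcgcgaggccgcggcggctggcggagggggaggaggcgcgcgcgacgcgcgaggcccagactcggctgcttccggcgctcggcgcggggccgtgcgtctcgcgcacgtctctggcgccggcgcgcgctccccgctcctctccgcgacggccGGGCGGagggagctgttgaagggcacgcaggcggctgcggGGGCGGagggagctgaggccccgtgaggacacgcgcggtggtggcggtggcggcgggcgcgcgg
KDM7A: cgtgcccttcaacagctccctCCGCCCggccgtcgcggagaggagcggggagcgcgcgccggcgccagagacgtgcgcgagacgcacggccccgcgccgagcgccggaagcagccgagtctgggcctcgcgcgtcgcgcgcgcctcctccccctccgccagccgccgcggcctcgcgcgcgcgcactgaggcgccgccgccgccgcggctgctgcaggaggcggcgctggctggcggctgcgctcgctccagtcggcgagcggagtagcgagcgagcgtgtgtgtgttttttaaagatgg
FLVCR1-AS1: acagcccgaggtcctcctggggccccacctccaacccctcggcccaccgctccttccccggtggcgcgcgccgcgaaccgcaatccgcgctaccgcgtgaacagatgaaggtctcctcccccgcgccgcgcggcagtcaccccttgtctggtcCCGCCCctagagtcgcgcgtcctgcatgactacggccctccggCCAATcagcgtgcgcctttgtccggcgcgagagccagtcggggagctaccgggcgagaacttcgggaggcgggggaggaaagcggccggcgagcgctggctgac
FLVCR1: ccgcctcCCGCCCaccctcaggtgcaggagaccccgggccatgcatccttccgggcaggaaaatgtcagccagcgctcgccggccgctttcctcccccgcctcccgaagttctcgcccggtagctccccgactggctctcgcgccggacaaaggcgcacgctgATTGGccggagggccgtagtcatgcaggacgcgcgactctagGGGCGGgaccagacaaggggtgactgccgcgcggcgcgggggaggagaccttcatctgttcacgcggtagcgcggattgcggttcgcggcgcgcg
TMPO-AS1: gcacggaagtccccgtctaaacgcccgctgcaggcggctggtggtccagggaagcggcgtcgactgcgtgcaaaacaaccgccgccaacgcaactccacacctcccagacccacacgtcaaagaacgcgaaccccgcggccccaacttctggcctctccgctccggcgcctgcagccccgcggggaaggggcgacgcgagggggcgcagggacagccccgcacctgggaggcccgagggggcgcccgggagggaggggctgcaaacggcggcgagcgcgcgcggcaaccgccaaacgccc
TMPO: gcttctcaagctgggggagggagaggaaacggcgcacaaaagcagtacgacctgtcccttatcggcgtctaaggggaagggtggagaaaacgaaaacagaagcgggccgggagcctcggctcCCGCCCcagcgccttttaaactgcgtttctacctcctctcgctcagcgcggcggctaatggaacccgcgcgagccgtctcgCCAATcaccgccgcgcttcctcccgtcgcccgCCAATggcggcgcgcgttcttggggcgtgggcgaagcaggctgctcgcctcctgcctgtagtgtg

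A CCAAT box in the shared stretch of the FLVCR1 pair is read in both windows, once on each strand. The TMPO window holds 2 CCAAT boxes and 1 GC box, and the TMPO-AS1 window holds none of the letters. RefSeq windows were found for 143 of the 175 antisense transcripts, 27 of them through a synonym. A GC box stood in 68.4% of the 177 windows of antisense transcripts and 62.2% of the 233 windows of hosts, against 45.0% of all 35116 windows of the same length. The median number of CG dinucleotides was 27, 24 and 14 in the same order. CCAAT stood in 33.9%, 36.1% and 34.6% of these windows, and the E2F letters in 4.52%, 3.43% and 3.32%. A match is a description of the letters only.

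Among the other transcripts with the smallest p, lower values came with hosts that were not lower as well as with hosts that were. GABPB1-AS1 had 111, 127 and 115 CPM in control and 86.1, 84.7 and 62.8 in CNTNAP2-203 OE (log2 fold change -0.59, edgeR adjusted p = 0.0887), with no overlap between groups. Its host GABPB1, the beta subunit of the transcription factor GABP, had a log2 fold change of 0.14. UCKL1-AS1 had 15.3, 13.5 and 13.3 CPM in control against 10.1, 10.1 and 8.97 (log2 fold change -0.53, edgeR adjusted p = 0.102), beside 0.16 for UCKL1, a uridine kinase-like gene. ZNF503-AS1, whose start lies 132087 bases from that of the zinc finger gene ZNF503, had 10.4, 9.02 and 9.37 CPM against 5.69, 5.40 and 6.29 (log2 fold change -0.73, edgeR adjusted p = 0.0563), beside -0.08 for the host. In these 3 pairs the antisense transcript was separated between the groups and the host overlapped.

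TNRC6C-AS1 and SLC9A3-AS1 had hosts with lower values too. TNRC6C-AS1 shares 1438 exonic bases with TNRC6C, 32.7% of its exonic length, and SLC9A3-AS1 shares 830 with SLC9A3, 19.3%. Reads in these bases can come from either gene, and their part in the lower host values was not tested. TNRC6C-AS1 had 16.2, 14.4 and 16.4 CPM in control and 10.4, 10.9 and 7.29 in CNTNAP2-203 OE (log2 fold change -0.71, edgeR adjusted p = 0.102), and TNRC6C, a scaffold protein of microRNA silencing, had 4.51, 4.38 and 4.71 against 3.68, 4.26 and 2.03 CPM (log2 fold change -0.44, edgeR adjusted p = 0.438). TMC6, on the same strand as TNRC6C-AS1 and sharing 1342 exonic bases with it, had -0.37. SLC9A3-AS1 had 62.8, 60.3 and 64.4 CPM in control and 47.6, 50.9 and 40.8 in CNTNAP2-203 OE (log2 fold change -0.43, edgeR adjusted p = 0.110). SLC9A3 had 5.14, 5.04 and 6.79 CPM in control and 3.59, 3.53 and 1.74 in CNTNAP2-203 OE (log2 fold change -0.93, edgeR adjusted p = 0.165). None of TNRC6C-AS1, TNRC6C, SLC9A3-AS1 and SLC9A3 overlapped between the groups. For the SLC9A3 pair the log2 ratio of antisense to host was higher by 0.56 in CNTNAP2-203 OE, and by 0.31 without CNTNAP2-203 OE replicate 3. Without that library the log2 fold change of TNRC6C was -0.20.

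**Figure D2:**
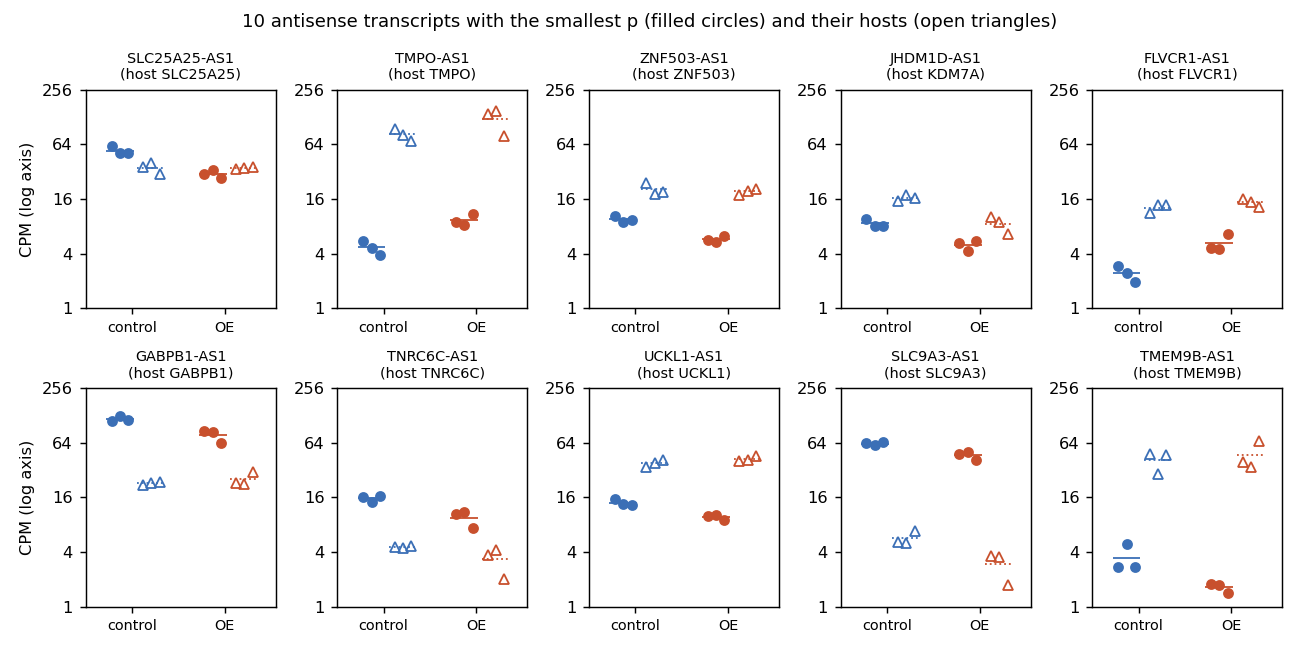
Level in each library (vertical axis, CPM on a log axis) of the 10 antisense transcripts with the smallest p (filled circles) and of their hosts (open triangles) in control (blue) and CNTNAP2-203 OE (red), with the group mean as a line. In each panel the filled circles of the 2 groups do not overlap, while most hosts overlap, with KDM7A, TNRC6C and SLC9A3 lower in all 3 CNTNAP2-203 OE libraries.

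The direction of an antisense transcript and of its host matched in 97 of the 165 pairs in which both were tested and differed in 68. Across these pairs the log2 fold changes had Pearson's r = 0.19 and Spearman's rho = 0.16, a description over genes that share the same 6 libraries. All opposite-strand pairs here are the 5345 pairs of tested genes in GENCODE 29 whose bodies overlap or that lie head-to-head within 1000 bases. They include the pairs of the antisense transcripts in these positions. Of the 5345, 2982 matched in direction, with r = 0.13 and rho = 0.16. By position, r was 0.16 over the 114 pairs with exonic overlap, 0.20 over 15 with overlap of the bodies alone and 0.29 over 32 head-to-head pairs, against 0.13 (3165 pairs), 0.16 (1060) and 0.08 (1120) in the same positions over all opposite-strand pairs. Head-to-head pairs matched in direction in 21 of 32 and pairs with exonic overlap in 66 of 114, against 628 of 1120 and 1779 of 3165 over all such pairs. These differences in r and in matches were not tested.

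Among the tested hosts 89.0% lay within 1.5-fold of control, a share close to those of the antisense transcripts and of all genes. DLGAP1, BAALC, MATN1, CKMT2, FGD5 and IGFL2 did not pass the filter on low counts, which left 164 hosts. An unadjusted p under 0.05 was found for 32 of these (19.5% against 17.2% of all genes and 21.1% of genes with at least 600 counts). The groups did not overlap for 52 (31.7% against 26.5% and 30.8%). DESeq2 called 13 hosts, 7 higher and 6 lower (8.23% of the 158 with an adjusted p, against 7.62% of all genes, with 650 higher and 475 lower). With edgeR 2 passed the threshold (1.22% against 1.39% of all genes), C1RL and SDCBP2, both lower. C1RL, a complement C1r-like serine protease, had 93.7, 85.9 and 94.7 CPM in control and 60.2, 64 and 55.9 in CNTNAP2-203 OE (log2 fold change -0.61, edgeR adjusted p = 0.0374). C1RL-AS1 had 22, 24.1 and 23.6 CPM in control and 16.7, 20.2 and 9.17 in CNTNAP2-203 OE (log2 fold change -0.59, edgeR adjusted p = 0.299). Both genes were lower in every CNTNAP2-203 OE library, and the log2 ratio between them differed by -0.06. They share 205 exonic bases, where reads can come from either gene. SDCBP2, which encodes syntenin-2, had 11.4, 10.6 and 11.0 CPM in control and 6.31, 6.85 and 7.0 in CNTNAP2-203 OE (log2 fold change -0.71, edgeR adjusted p = 0.0473). SDCBP2-AS1 overlapped between the groups (log2 fold change -0.17), and the ratio was higher by 0.55 in CNTNAP2-203 OE. No host passed in any fit that left out a control library or CNTNAP2-203 OE replicate 1 or 2, and both did without CNTNAP2-203 OE replicate 3.

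**Figure D3:**
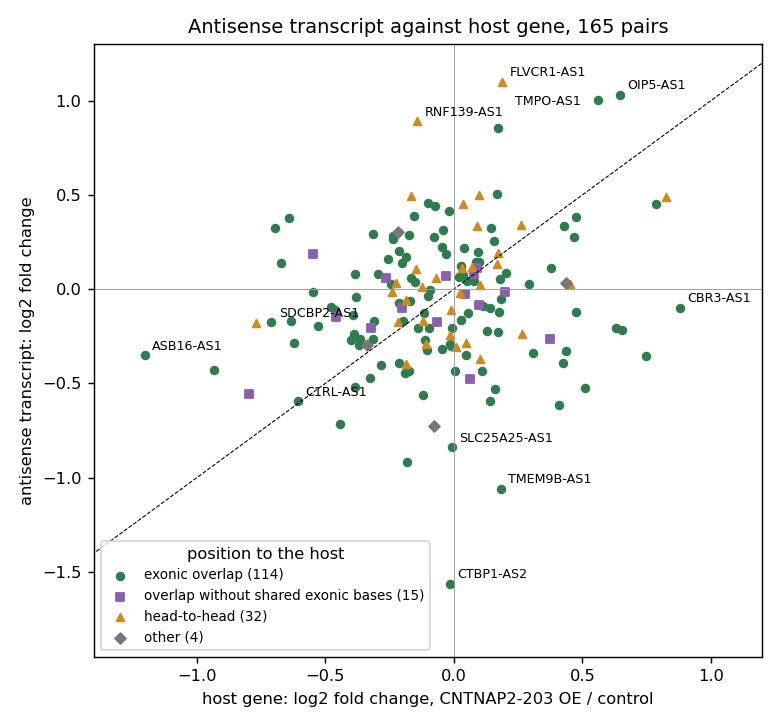
Log2 fold change of each antisense transcript (vertical axis) against that of its host (horizontal axis) for 165 pairs, with the position of the pair as colour and symbol and the line of equal change dashed. Points scatter on all sides of 0, SLC25A25-AS1, TMEM9B-AS1 and CTBP1-AS2 lie far below 0 over a host near 0, and C1RL-AS1 lies on the dashed line.

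The ratio of antisense to host counts within a library does not depend on how libraries are scaled. It did not overlap between the groups in 36 of 165 pairs (21.8% against 20.0% of all opposite-strand pairs), 16 higher and 20 lower in CNTNAP2-203 OE. With 3 libraries a group, no pair could have an exact two-sided permutation p below 0.1, and the smallest value adjusted over the 165 pairs was 0.458. The 36 differences were 0.22 to 1.39 in size on the log2 scale. In 18 of the 36 the antisense transcript had the larger log2 fold change in size and in 18 the host, and in 24 the signs were opposite.

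CTBP1-AS2, listed as CTBP1-DT in GENCODE 29, had the largest of these differences. It had 6.28, 2.13 and 6.39 CPM in control and 1.91, 1.38 and 1.71 in CNTNAP2-203 OE (log2 fold change -1.56, edgeR adjusted p = 0.123), while its host CTBP1, a transcriptional corepressor, had -0.0141. Control replicate 2 lay near the CNTNAP2-203 OE libraries. TMEM9B-AS1 had 2.75, 4.86 and 2.77 CPM in control and 1.79, 1.74 and 1.43 in CNTNAP2-203 OE (log2 fold change -1.06), beside 0.18 for TMEM9B, a lysosomal membrane protein. RNF139-AS1 had 2.70, 2.33 and 5.56 CPM in control and 6.40, 6.56 and 6.72 in CNTNAP2-203 OE (log2 fold change 0.89), beside -0.14 for RNF139, a ubiquitin ligase of the endoplasmic reticulum. All 3 were separated between the groups, with 1 control library apart from the other controls in each. The raw counts of CTBP1-AS2 were 249, 84 and 270 in control and 81, 57 and 60 in CNTNAP2-203 OE. Those of TMEM9B-AS1 were 109, 192 and 117 in control and 76, 72 and 50 in CNTNAP2-203 OE. Most of the summed count by which these 2 were chosen thus came from control.

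The 3 further pairs with the largest difference between fold changes had ratios that overlapped between the groups. For ITGB2-AS1 the log2 fold change was -0.53 and for ITGB2, an integrin of leukocytes, 0.51. For TTC28-AS1 and TTC28 the values were 0.33 and -0.69, with TTC28 below 1 CPM in every library. CCDC183-AS1 and CCDC183 had -0.36 and 0.75. ITGB2-AS1 was at 0.266 CPM in CNTNAP2-203 OE replicate 2 and 5.2 in replicate 3, a range that covers all 3 controls.

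In some pairs with separated ratios the host had the larger log2 fold change. The 2 given here were named after their values were seen. CDKN2B, an inhibitor of cyclin-dependent kinases, had 73.3, 76.9 and 76.3 CPM in control and 48.8, 57.4 and 48.6 in CNTNAP2-203 OE (log2 fold change -0.55, edgeR adjusted p = 0.0506). CDKN2B-AS1, also called ANRIL, had 7.87, 8.61 and 9.28 CPM in control and 9.89, 9.73 and 9.69 in CNTNAP2-203 OE (log2 fold change 0.19), so that CDKN2B was lower and CDKN2B-AS1 higher in every CNTNAP2-203 OE library. CBR3, a carbonyl reductase, had a log2 fold change of 0.88 and CBR3-AS1 -0.10.

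**Figure D4:**
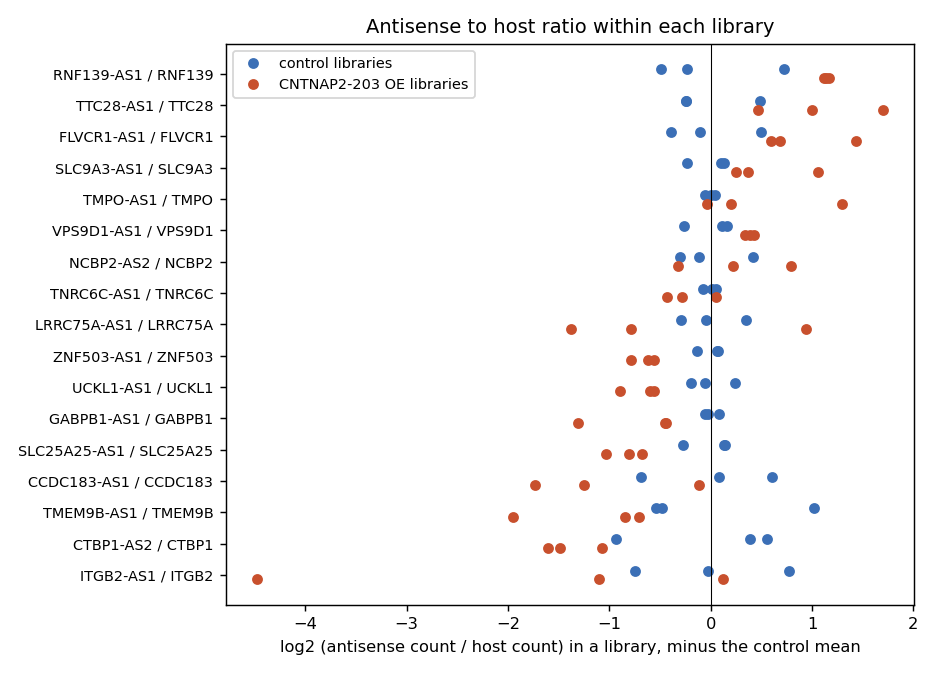
Log2 ratio of antisense to host counts in each library, minus the mean of the controls (horizontal axis), for 17 pairs (rows) with control libraries in blue and CNTNAP2-203 OE libraries in red. The red points of SLC25A25-AS1, GABPB1-AS1, UCKL1-AS1, ZNF503-AS1, TMEM9B-AS1 and CTBP1-AS2 lie to the left of all blue points, and those of RNF139-AS1, FLVCR1-AS1, SLC9A3-AS1 and VPS9D1-AS1 to the right.

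Overlap of exons with genes on the other strand was common. Of the 175 antisense transcripts, 135 shared exonic bases with at least 1 opposite-strand gene, with a median of 12.7% of their exonic length and the highest value, 69.9%, in PITPNA-AS1. In 9 more than 50% of the length was shared, and in 40 none was. Of the 135, 1 passed the test and 20 (14.8%) had an unadjusted p under 0.05 (median log2 fold change -0.09). Of the 40 without shared bases, 0 passed by edgeR, 0 by limma-voom and 4 by DESeq2, and 8 (20%) had an unadjusted p under 0.05 by edgeR (median -0.04), against 17.2% of all genes. DESeq2 called 9 of the 135 (6.67%), and its 4 calls are 10% of the 40, against 7.62% of all genes.

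Several antisense transcripts stepped between libraries of 1 group. In 28 of the 175 (16%) the highest CPM within a group was at least 2 times the lowest, as in 14% of the tested hosts and 10.3% of all genes with a summed count of at least 600, whose median level of 29.1 CPM was above the 5.62 CPM of the antisense transcripts. OIP5-AS1, an abundant RNA also known as cyrano, had 134 CPM in control replicate 1, 29.2 and 28.5 in the other controls, and 132, 134 and 125 in CNTNAP2-203 OE. Control replicate 1 thus lay with the CNTNAP2-203 OE libraries, and the log2 fold change of 1.03 had a standard error of 0.67 (edgeR adjusted p = 0.489). Among the alternatives run it passed the threshold only without control replicate 1 (edgeR adjusted p = 0.00402). OIP5, a centromere protein that shares 470 exonic bases with it, had 11.6, 10.7 and 11.2 CPM in control and 16.7, 15.6 and 20.3 in CNTNAP2-203 OE (log2 fold change 0.65, edgeR adjusted p = 0.0767). CHP1, the neighbour on the same strand, had 153, 149 and 159 CPM in control and 145, 146 and 144 in CNTNAP2-203 OE. Neither OIP5 nor CHP1 showed the step of control replicate 1.

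OTUD6B-AS1 and CKMT2-AS1 were low in control replicate 2. OTUD6B-AS1 had 16.6, 6.36 and 22.2 CPM in control and 21, 21.6 and 21.1 in CNTNAP2-203 OE. CKMT2-AS1 had 8.52, 3.17 and 8.26 CPM in control and 7.34, 7.67 and 7.32 in CNTNAP2-203 OE. PXN-AS1 had 4.51, 4.51 and 4.19 CPM in control and 10.6, 9.27 and 4.06 in CNTNAP2-203 OE, where replicate 3 lay with the controls. It passed the threshold only without that library (edgeR adjusted p = 0.0155), while PXN, which encodes the focal adhesion protein paxillin, had a log2 fold change of 0.17. The labels of control replicate 1 say that its file of reverse reads was missing, and the part of this in the values of OIP5-AS1 was not tested.

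**Figure D5:**
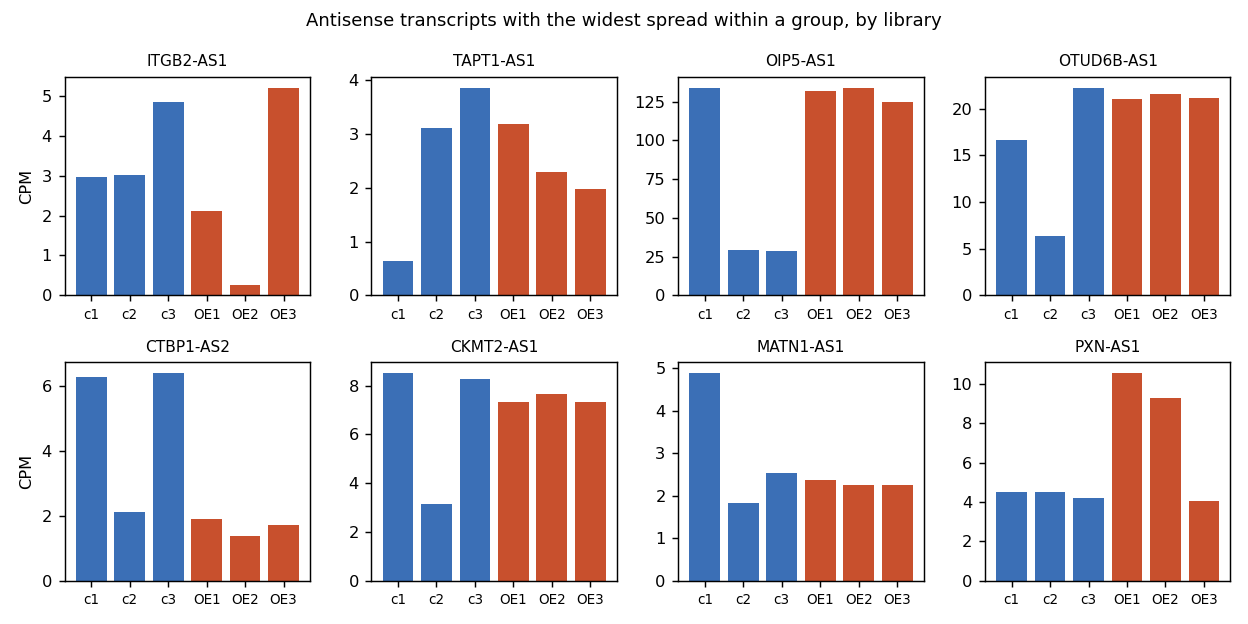
Level (vertical axis, CPM, from 0) in each of the 6 libraries (c1 to c3, control replicates in blue, and OE1 to OE3, CNTNAP2-203 OE replicates in red) of the 8 antisense transcripts with the widest spread within a group. OIP5-AS1 stands at 134 CPM in control replicate 1 against 29.2 and 28.5 in the other controls, and PXN-AS1 at 4.06 in CNTNAP2-203 OE replicate 3 against 10.6 and 9.27.

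Genes of RNA decay, most of them factors that turn over unstable noncoding RNAs in the nucleus, were read beside the antisense transcripts. The list also held XRN1, DCP2 and UPF1, factors of cytoplasmic decay. Of 28 tested, 0 passed by edgeR, 2 by DESeq2 (SRRT and EXOSC2) and 0 by limma-voom, and 9 (32.1%) had an unadjusted p under 0.05, 7 higher and 2 lower (median log2 fold change 0.13). The share at an unadjusted p under 0.05 was 17.2% of all genes (9.41% higher and 7.84% lower) and 21.1% of genes with at least 600 counts, and the 2 calls of DESeq2 are 7.14% of the 28 against 7.62% of all genes. SRRT, which joins the cap-binding complex to RNA decay, had 92.7 ± 7.14 CPM (SD, n = 3) in control and 123 ± 6.47 in CNTNAP2-203 OE (log2 fold change 0.41, edgeR adjusted p = 0.0993). EXOSC2, an exosome subunit, had 53.9 ± 1.26 and 69.0 ± 2.70 CPM (log2 fold change 0.36, edgeR adjusted p = 0.103). PAPD5, a poly(A) polymerase that tags RNAs for the exosome, had 19.9 ± 2.96 and 13.5 ± 2.63 CPM (log2 fold change -0.55, edgeR adjusted p = 0.189).

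Antisense rows under the threshold of 600 counts numbered 1058, of which 293 were tested. By edgeR 0 of them passed and 27 had an unadjusted p under 0.05 (9.22% against 17.2% of all genes), with a median log2 fold change of -0.12. DESeq2 called IDI2-AS1, ST7-AS1 and TMCC1-AS1, all lower (3.09% of the 97 with an adjusted p, against 7.62% of all genes), and limma-voom called 0.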

How the data were processed

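The authors deposited raw counts per gene, whole numbers for 60564 genes, and log2 values. Set against the counts, these were read as log2(FPKM + 1). The labels' protocols describe ribosomal RNA depletion of total RNA and the TruSeq RNA v2 kit. Trimming with Trim Galore 0.4.4 and the build hg38 are recorded in the submitters' processing notes. The aligner, counter, annotation and strand handling were not given in the sources used here. Per the labels, the reverse reads of control replicate 1 were missing at submission.

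Groups come from sample titles. Counts were fitted with edgeR 4.0.16 (R 4.3.3): filterByExpr (minimum count 10) left 18786 genes, then TMM, the robust quasi-likelihood test of group alone and Benjamini-Hochberg adjustment over all of them at 0.05. CPM are TMM-scaled. Standard errors were derived from the log2 fold change and its F statistic. Every antisense transcript and host is a row of that fit. Antisense to host ratios are log2 of counts plus 0.5, compared by exact two-sided permutation over 6 libraries. Positions are from GENCODE 29 (GRCh38), matched by gene identifier for all 175 transcripts, and promoters from RefSeq (GRCh38.p14). Alternatives were RLE size factors, DESeq2 1.42.0, limma-voom 3.58.1, no filter, a replicate block, other count thresholds and leaving out each library. The script was tested on simulated counts with known changes. Their spread between libraries followed only the trend with level, without differences between genes of like level or an outlying library. The shares below hold for that setting only. The edgeR fit recovered 13.4% of 1.5-fold, 46.3% of 2-fold and 86.4% of 4-fold changes, and 4.90% of its calls were false. Changes of 1.5-fold to 2-fold were thus often missed there.

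The transcripts, the list of RNA decay genes and the naming rule were chosen with earlier results of these data known. Named were every transcript called, the 10 with the smallest p, the 5 highest in FPKM, the 6 with the largest difference from their host, the hosts of these, and the 3 decay genes with the smallest p. Others, such as called hosts and transcripts with a wide spread, were named after their values were seen. Totals of 36843190 to 42412703 counts per library gave the antisense transcripts a median standard error of 0.19 on the log2 scale.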

Additional observations from a re-analysis of the deposited data

How the results depend on the processing

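SLC25A25-AS1 remained the only antisense transcript called with RLE size factors and with limma-voom. It was also the only one called when the minimum summed count was halved or doubled, but this followed from the main fit. The change only alters which rows of that fit are counted. SLC25A25-AS1 had 10225 counts over the libraries, and the main fit called 0 of the 293 tested antisense rows of lower count. The other thresholds are thus no separate check of the call. DESeq2 called 13 antisense transcripts, 13 hosts, 1125 genes in all, 2 RNA decay genes and 3 antisense rows of lower count. Without the filter on low counts 2 antisense transcripts were called (SLC25A25-AS1 and TMPO-AS1). The labels share replicate numbers between groups, and with the replicate number as a block 0 antisense transcripts, 0 hosts and 17 genes in all were called. Same-numbered libraries had correlations of -0.08, 0.05 and -0.03 in their deviations from the group means. Libraries with different numbers had -0.08 to 0.11. With 3 libraries a group these values cannot decide whether same-numbered libraries were handled together.

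Leaving out 1 library at a time gave 0 to 5 called antisense transcripts, 0 to 7 called hosts, 14 to 545 called genes in all and 0 to 1 called antisense rows of lower count (IDI2-AS1, without control replicate 2), and the median log2 fold change of the antisense transcripts lay between -0.091 and -0.030. The most antisense transcripts were called without CNTNAP2-203 OE replicate 3, where DLGAP1-AS2, GABPB1-AS1, PXN-AS1, SLC25A25-AS1 and ZNF503-AS1 passed. In the other 5 fits only OIP5-AS1 passed, without control replicate 1. The log2 fold change changed sign for GABPB1 (-0.018 to 0.22), TMEM9B (-0.17 to 0.36) and NCBP2-AS2 (-0.18 to 0.17), each at its negative end without CNTNAP2-203 OE replicate 3, and for IGFL2-AS1 (-0.14 to 0.12), negative without CNTNAP2-203 OE replicate 2. It also changed sign, moving by less than 1 standard error of the fit with all 6 libraries where it did, for SLC25A25 (-0.12 to 0.095), ZNF503 (-0.15 to 0.059), CTBP1 (-0.098 to 0.052), LRRC75A-AS1 (-0.32 to 0.0047), LRRC75A (-0.096 to 0.83) and ITGB2-AS1 (-1.61 to 0.014). None of these 10 genes passed in any of these fits, and the cause was not tested. The ratio of TTC28-AS1 to TTC28 differed by 0.36 with FPKM in place of 1.05 with counts. The median standard error of the log2 fold change was 0.19 for the antisense transcripts and 0.19 for all genes tested. It was smaller for genes with at least 600 counts (0.15) and for the tested hosts (0.14). Their median levels were 29.1 and 38.5 CPM, against 5.62 CPM for the antisense transcripts, so these shares of calls are not compared at equal precision.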
